A study of Mus musculus with 20 samples.

Results

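Brain RNA was compared between *Winnie* mice, a model of spontaneous colitis that has a missense mutation of *Muc2* (a mucin of goblet cells), and C57BL/6 mice from the same breeding colony, all aged 14 weeks. The genes described here are 37 genes of the small brain vessels, 27 of endothelial cells and 10 of mural cells, taken by gene symbol from a list of named genes. All 37 were found among the 17211 genes of the table. The labels name 20 brains, 10 of each genotype, split evenly between the labelled sexes, and all 20 were used although the study describes its brain sequencing on 8 C57BL/6 and 6 *Winnie* mice. No treatment was compared, and the paper reports that the mice were killed with pentobarbitone. Every *Winnie* brain came from a mouse with the mutation throughout the body, so nothing here was specific to vessels by design.

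Brain capillaries are lined by endothelial cells that are sealed to each other by tight junctions and carry nutrients, lipids and waste through dedicated transporters, which together form the blood-brain barrier. Pericytes lie on the outer face of the capillary within the same basement membrane, and smooth muscle cells surround arterioles. Signals between these cells, such as vascular endothelial growth factor, angiopoietin, platelet-derived growth factor, Notch and Wnt, set vessel growth and barrier properties. In RNA of whole brain, fewer cells of a type and less RNA per cell cannot be told apart. Several of the genes are also transcribed outside vessels, for example *Slc2a1* and *Slco1c1* in astrocytes.

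Values are CPM, the reads of a gene scaled to a common total per brain, and the listed genes held 16540303 to 23923769 reads per brain. Differences were tested with limma on log2(CPM + 0.5), and the false discovery rate (FDR) is the adjusted p over all 17211 genes. The median log2 fold change of all genes was 0.0022. The first principal component of all genes held 16.2% of the variance, with *Winnie* replicates 6, 7 and 8 at 15.2 to 19.6, C57BL/6 replicate 2 at 17.4 and the other 16 brains between -17.0 and 9.35. On the second, which held 12.7% of the variance, C57BL/6 replicates 3 and 5 lay at 25.7 and 20.4, and the other 18 brains lay between -13.2 and 5.91. The *Xist* and *Ddx3y* levels went against the labelled sex in 9 brains, all C57BL/6. Library numbers run in order of genotype, so library order and genotype cannot be told apart.

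Of the 37 genes, 3 passed an FDR under 0.05 and all 3 were higher in *Winnie* brains. They were *Slc2a1*, the glucose transporter of the barrier, *Ramp2*, the co-receptor for adrenomedullin, and *Abcc9*, the sulfonylurea receptor subunit of the pericyte potassium channel. Among all genes 2.52% passed this FDR in either direction and 1.52% passed with a higher level in *Winnie* brains. At an unadjusted p under 0.05, 14 of the 37 genes were higher and 0 were lower, beside 9.53% of all genes that were higher. Of all 17211 genes, 1390 were lower at this p. The 37 genes were chosen with earlier results of these data known, so these shares are a description only. The median log2 fold change was 0.09 over the 27 endothelial genes and 0.07 over the 10 mural genes. No gene of the 37, and none of the whole table, passed the stricter threshold of the study's methods, an FDR under 0.001 together with a minimum fold change, in the limma fit. With edgeR 1 gene and with DESeq2 12 genes of the table passed it, and 0 members with either. The number of members called depended on single brains, as did that of all genes (434 with all brains). Among members it was 1 (*Slc2a1*) without any one of C57BL/6 replicates 5 and 8 and *Winnie* replicates 3, 7 and 8, 6 without C57BL/6 replicate 2 and 7 without C57BL/6 replicate 10. The fits without a single brain that called 1 member called 169 to 256 of all genes. Those without C57BL/6 replicates 2 and 10 called 498 and 694. With C57BL/6 replicates 3 and 5 both left out, *Slc2a1* was the 1 member called, beside 67 of all genes.

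**Figure D1:**
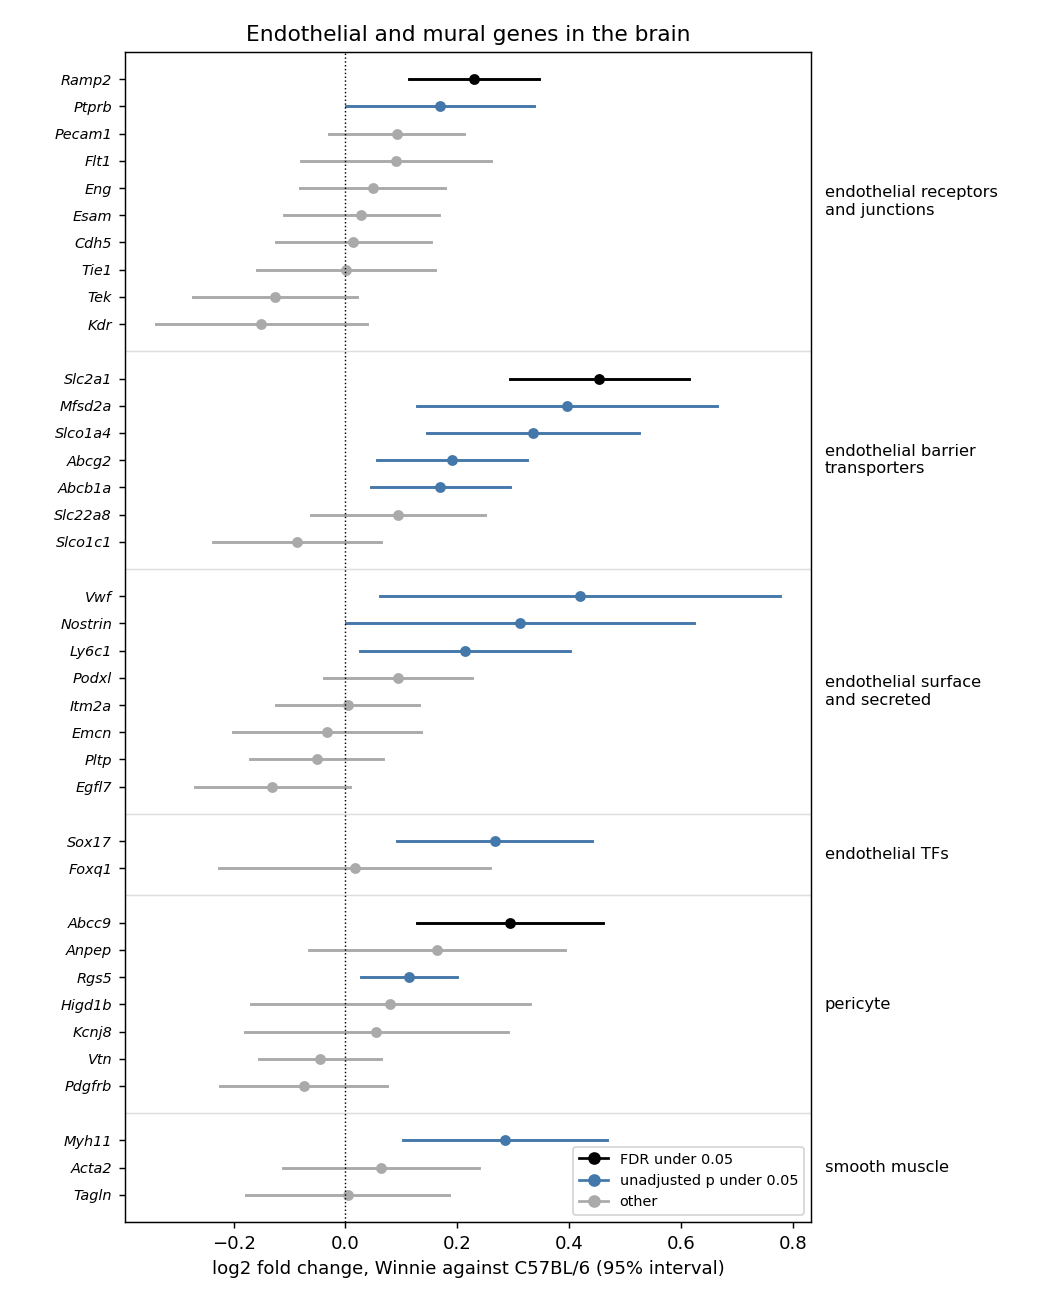
Log2 fold change (x axis, *Winnie* against C57BL/6) of the 37 genes, one row per gene grouped by role, with 95% confidence intervals from limma over 10 brains per genotype. The 3 genes with an FDR under 0.05 are black and the other 11 with an unadjusted p under 0.05 are blue, and all 14 lie to the right of 0.

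The 7 barrier transporters had the highest median log2 fold change of the role groups, 0.19. Of them *Slc2a1* passed the FDR, 4 more were higher at an unadjusted p under 0.05 and 2 had neither. *Slc2a1* (GRCm38, chromosome 4, 119108711 to 119137983) encodes GLUT1, which brings glucose into the brain. Its level was 77.9 CPM at the lowest, 89.8 at the median and 125 at the highest in C57BL/6 brains, and 106, 128 and 146 CPM in *Winnie* brains. All 10 *Winnie* brains lay above the C57BL/6 median and 7 lay above every C57BL/6 brain, so the groups overlapped in a few brains. The mean was 95.6 ± 15.4 CPM (SD, n = 10) in C57BL/6 and 130.2 ± 12.3 CPM (SD, n = 10) in *Winnie* brains, a log2 fold change of 0.45 (SE 0.077, 95% confidence interval 0.29 to 0.61, FDR = 0.00551 with limma). *Slc2a1* was called without each of the 20 brains in turn, with an FDR between 4.2e-04 and 0.0136. Its exon sequence overlaps that of another gene, *Gm12868*, and whether the counting used strand is not given in the sources used here.

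*Slco1a4* (chromosome 6, 141805440 to 141856199) encodes an organic anion transporter of the capillary membranes. It ranged from 21.9 to 40.3 CPM with a median of 28.0 in C57BL/6 brains, and from 30.8 to 41.1 CPM with a median of 36.8 in *Winnie* brains. All 10 *Winnie* brains were above the C57BL/6 median, yet C57BL/6 replicate 2, at 40.3 CPM, was higher than 9 of them. The log2 fold change was 0.34 (SE 0.091, 95% confidence interval 0.15 to 0.52), and its FDR with limma was 0.0503, just outside the threshold. It was under the threshold in 8 of 11 other settings, among them TMM scaling and both count models, and in 5 of the 20 fits that left out a brain. *Mfsd2a* moves lysophospholipids with docosahexaenoic acid into the brain and restrains vesicle traffic. It lay between 18.02 and 28.6 CPM (median 20.4) in C57BL/6 and between 20.8 and 43.5 CPM (median 27.5) in *Winnie* brains, with a log2 fold change of 0.40 (SE 0.13, FDR = 0.102 with limma). The spread of *Mfsd2a* within *Winnie* brains was wide (SD 7.76 CPM), and 4 of the 10 lay above every C57BL/6 brain. The 3 highest, *Winnie* replicates 6, 7 and 8 at 43.5, 41.9 and 34.0 CPM, were also the 3 highest *Winnie* brains on the first principal component and the 3 lowest in the choroid plexus level (-0.54, -0.69 and -0.18 as centred log2). The part of this in the result was not tested.

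The efflux pump genes had smaller log2 fold changes and did not pass the FDR. *Abcg2* (BCRP) ranged from 9.54 to 13.3 CPM (median 11.7) in C57BL/6 and from 11.4 to 17.2 CPM (median 13.2) in *Winnie* brains, with a log2 fold change of 0.19 (SE 0.066, FDR = 0.111 with limma). *Abcb1a* (P-glycoprotein) ranged from 20.3 to 30.2 CPM (median 25.04) in C57BL/6 and from 25.5 to 30.4 CPM (median 28.5) in *Winnie* brains, with a log2 fold change of 0.17 (SE 0.06, FDR = 0.123 with limma). Both sets of brains overlapped, although all 10 *Winnie* brains exceeded the C57BL/6 median of *Abcb1a* and 9 that of *Abcg2*. The other transporters gave no such difference. The organic anion transporter gene *Slc22a8* was at 20.1 ± 2.49 against 21.5 ± 2.98 CPM in C57BL/6 against *Winnie* brains (SD, n = 10 each), a log2 fold change of 0.09 (95% confidence interval -0.06 to 0.25). *Slco1c1*, which carries thyroxine, was at 46.4 ± 5.74 against 43.7 ± 5.40 CPM, a log2 fold change of -0.09 (95% confidence interval -0.24 to 0.06).

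Sequence before the start sites was read from the RefSeq promoter table (GRCm38.p6), which matched 24 of the 37 genes with 29 start sites. The letters AGGAAG, a core bound by ETS factors of endothelium, were found on either strand in the 250 bases before 15 of the 29 starts (51.7%), beside 29.5% of 32851 starts of all genes. The hypoxia response core ACGTG was in 2 of the 29 (6.9%, all starts 16.6%) and the TCF/LEF core CTTTGA in 5 of the 29 (17.2%, all starts 13.8%). Starts of one gene can share sequence, and a match is a description of the letters and not a bound site. The sequence before *Slc2a1*, the member with the lowest FDR, is shown up to its first annotated exon, with those of the transporters *Slco1a4* and *Abcg2* (the third of its RefSeq starts). AGGAAG and its reverse complement are in capitals, the *Slc2a1* stretch holds none of the motifs, and no match of any of the 3 motifs overlapped another in these windows. The windows shown are examples. Of the others from members with an unadjusted p under 0.05, those of *Abcb1a*, *Nostrin* and the other *Abcg2* starts hold AGGAAG. Those of *Abcc9*, *Mfsd2a*, *Rgs5* and *Ly6c1* do not. The *Abcb1a* window (chromosome 5, 8566841 to 8567090) lies well before the gene's GENCODE coordinates (8660077 to 8748575), so it does not adjoin that start.
Slc2a1, chr4:119108495-119108710, plus strand: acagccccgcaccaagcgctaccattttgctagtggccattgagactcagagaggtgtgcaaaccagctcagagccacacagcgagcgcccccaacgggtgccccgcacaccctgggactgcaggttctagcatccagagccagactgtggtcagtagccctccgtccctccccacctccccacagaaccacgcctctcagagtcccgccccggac
Slco1a4, chr6:141856221-141856470, minus strand: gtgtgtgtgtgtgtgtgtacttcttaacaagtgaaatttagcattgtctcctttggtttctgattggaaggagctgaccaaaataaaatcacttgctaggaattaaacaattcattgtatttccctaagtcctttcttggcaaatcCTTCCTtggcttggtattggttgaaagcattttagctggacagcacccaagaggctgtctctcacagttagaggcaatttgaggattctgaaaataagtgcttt
Abcg2, chr6:58640296-58640545, plus strand: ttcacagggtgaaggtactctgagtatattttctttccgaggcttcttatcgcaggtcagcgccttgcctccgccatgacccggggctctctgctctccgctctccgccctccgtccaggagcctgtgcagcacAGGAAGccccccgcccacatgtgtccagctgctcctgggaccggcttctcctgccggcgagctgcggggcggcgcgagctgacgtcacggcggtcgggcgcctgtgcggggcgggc

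**Figure D2:**
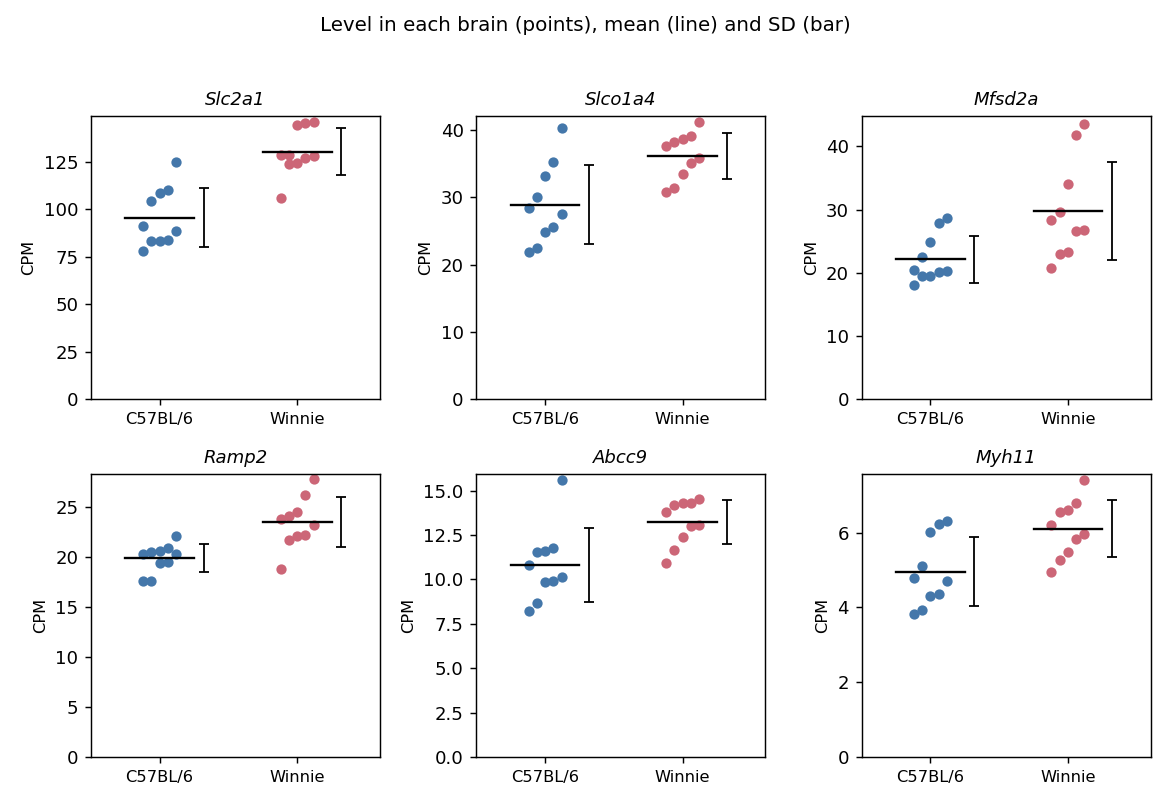
Level in CPM (y axis, from 0) of *Slc2a1*, *Slco1a4*, *Mfsd2a*, *Ramp2*, *Abcc9* and *Myh11* in each of 10 C57BL/6 (blue) and 10 *Winnie* (red) brains, with the mean as a line and the SD as a bar. *Slc2a1* lies between 77.9 and 125 CPM in C57BL/6 and between 106 and 146 CPM in *Winnie* brains, and 1 C57BL/6 brain at 15.6 CPM stands above all *Winnie* brains for *Abcc9*.

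Of the 10 receptor and junction genes of endothelium, *Ramp2* passed the FDR and *Ptprb* was higher at an unadjusted p under 0.05, and the median log2 fold change was 0.04. *Ramp2* (chromosome 11, 101246028 to 101259546) ranged from 17.5 to 22.1 CPM (median 20.3) in C57BL/6 and from 18.8 to 27.8 CPM (median 23.5) in *Winnie* brains. In *Winnie* brains 7 values lay above every C57BL/6 value, and replicate 4, at 18.8 CPM, was below the C57BL/6 median. The log2 fold change was 0.23 (SE 0.057, 95% confidence interval 0.11 to 0.35, FDR = 0.0282 with limma). The call was lost without any one of 5 brains and with the replicate block (FDR = 0.068). *Ramp2* shares exon sequence on the same strand with *Vps25*, for which the table gave 2.24 ± 0.456 CPM in C57BL/6 and 1.69 ± 0.213 CPM in *Winnie* brains (log2 fold change -0.31, FDR = 0.0702 with limma), so reads may be split between them. The part of this in the result was not tested.

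*Ptprb* encodes VE-PTP, the phosphatase that holds the angiopoietin receptor in check. It ranged from 32.8 to 53.7 CPM (median 44.0) in C57BL/6 and from 40.2 to 57.7 CPM (median 49.99) in *Winnie* brains, with a log2 fold change of 0.17 (SE 0.081, FDR = 0.279 with limma), and the groups overlapped over most of their range. The angiopoietin receptor gene *Tek* itself was at 13.7 ± 1.36 CPM in C57BL/6 and 12.5 ± 1.75 CPM in *Winnie* brains (SD, n = 10 each; log2 fold change -0.13, 95% confidence interval -0.27 to 0.021), and its relative *Tie1* was at 10.8 CPM in both (log2 fold change 5.6e-04). Of the receptors for vascular endothelial growth factor, *Flt1* was at 69.9 ± 11.3 against 74.0 ± 7.87 CPM (log2 fold change 0.09) and *Kdr* at 12.7 ± 2.62 against 11.3 ± 1.48 CPM (log2 fold change -0.15, 95% confidence interval -0.34 to 0.038). *Kdr* was the lowest of all 37 by log2 fold change, and its FDR was 0.41. The TGF-beta co-receptor gene *Eng* had a log2 fold change of 0.05. The junction genes among the members, *Cdh5*, *Pecam1* and *Esam*, had 95% confidence intervals that included 0. The tight junction gene *Cldn5*, which is not a member, was lower in *Winnie* brains (log2 fold change -0.47) and is described below. VE-cadherin (*Cdh5*) was at 15.9 ± 1.76 against 16.1 ± 1.94 CPM with a 95% confidence interval of -0.12 to 0.15 on the log2 scale, *Pecam1* had a log2 fold change of 0.09 (-0.03 to 0.21) and *Esam* of 0.03 (-0.11 to 0.17).

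Among the 8 surface and secreted genes, 3 were higher at an unadjusted p under 0.05 and 0 passed the FDR with limma, edgeR or DESeq2. *Vwf*, the clotting glycoprotein stored in endothelial granules, ranged from 10.6 to 37.5 CPM (median 18.2) in C57BL/6 and from 17.8 to 31.0 CPM (median 26.2) in *Winnie* brains. Its log2 fold change was 0.42 (SE 0.17, FDR = 0.2 with limma), and no *Winnie* brain exceeded the highest C57BL/6 brain. *Vwf* had the widest spread within genotypes of the 37 genes (SD 0.38 on the log2 scale). *Ly6c1*, a membrane-anchored surface antigen with close paralogs in its gene cluster, ranged from 19.6 to 33.3 CPM (median 25.1) in C57BL/6 and from 23.0 to 38.7 CPM (median 28.6) in *Winnie* brains (log2 fold change 0.21, SE 0.091, FDR = 0.215 with limma). *Nostrin*, which binds endothelial nitric oxide synthase, ranged from 1.33 to 4.07 CPM (median 2.38) and from 2.11 to 4.94 CPM (median 2.77), with a log2 fold change of 0.31 (SE 0.15, FDR = 0.283 with limma). It rested on as few as 22 reads in a brain. All 3 of these genes overlapped between the genotypes. The other 5 had log2 fold changes between -0.13 and 0.09. *Podxl*, the sialomucin of the luminal surface, was at 38.6 ± 5.26 against 41.0 ± 3.87 CPM, and the phospholipid transfer protein gene *Pltp* at 85.2 ± 5.07 against 82.6 ± 10.2 CPM. *Egfl7*, a secreted protein gene that also holds the microRNA gene *Mir126a*, was at 15.9 ± 2.10 against 14.4 ± 1.39 CPM (log2 fold change -0.13, 95% confidence interval -0.27 to 0.0072). *Emcn*, an endothelial mucin, and *Itm2a*, a membrane protein gene, had log2 fold changes of -0.03 and 0.0038.

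Of the 2 endothelial transcription factor genes, *Sox17*, which acts in arterial identity and barrier formation, ranged from 3.61 to 7.08 CPM (median 4.98) in C57BL/6 and from 5.15 to 7.34 CPM (median 6.23) in *Winnie* brains. All 10 *Winnie* brains exceeded the C57BL/6 median and 1 exceeded its highest brain, and the log2 fold change of 0.27 (SE 0.085) did not pass the FDR (FDR = 0.0833 with limma). *Foxq1*, a factor of brain endothelium, was at 4.29 ± 0.882 against 4.38 ± 1.12 CPM, a log2 fold change of 0.016 (95% confidence interval -0.23 to 0.26).

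Among the 7 pericyte genes the pore and the regulatory subunit of one potassium channel gave different values. *Abcc9* (chromosome 6, 142587862 to 142702315) encodes SUR2, which regulates the channel. It ranged from 8.22 to 15.6 CPM (median 10.4) in C57BL/6 and from 10.9 to 14.5 CPM (median 13.4) in *Winnie* brains. All 10 *Winnie* brains were above the C57BL/6 median, but C57BL/6 replicate 2 was higher than all 10. The log2 fold change was 0.29 (SE 0.081, 95% confidence interval 0.13 to 0.46, FDR = 0.0468 with limma), and the call held in 6 of the 20 fits that left out a brain and not with edgeR (FDR = 0.0628) or the replicate block (FDR = 0.0849). Exon sequence of *Abcc9* overlaps that of another gene, *5330439B14Rik*. *Kcnj8*, the pore subunit Kir6.1 on the neighbouring stretch of chromosome 6, was at 2.50 ± 0.628 against 2.60 ± 0.504 CPM, a log2 fold change of 0.05 (95% confidence interval -0.18 to 0.29). The difference between *Abcc9* and *Kcnj8* was not tested. *Rgs5*, a regulator of G-protein signalling, ranged from 77.0 to 97.7 CPM (median 88.6) and from 86.9 to 103.6 CPM (median 97.7), with overlap in 5 of the 10 *Winnie* brains (log2 fold change 0.11, SE 0.042, FDR = 0.135 with limma). It had the narrowest spread of the 37 genes (SD 0.091 on the log2 scale).

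The other 4 pericyte genes, which encode surface, matrix and mitochondrial proteins, did not pass the test. *Pdgfrb*, the platelet-derived growth factor receptor that recruits pericytes, was at 26.7 ± 3.43 CPM in C57BL/6 and 25.2 ± 2.86 CPM in *Winnie* brains (log2 fold change -0.07, 95% confidence interval -0.22 to 0.075). *Vtn*, which encodes vitronectin, was at 57.7 ± 4.61 against 56.0 ± 5.57 CPM (log2 fold change -0.05, 95% confidence interval -0.15 to 0.063). *Anpep* (CD13) had a log2 fold change of 0.16 (95% confidence interval -0.07 to 0.39), and *Higd1b*, at 0.894 ± 0.324 against 0.95 ± 0.196 CPM and as few as 7 reads in a brain, of 0.08.

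Of the 3 smooth muscle genes, *Myh11*, the smooth muscle myosin heavy chain, ranged from 3.83 to 6.32 CPM (median 4.75) in C57BL/6 and from 4.95 to 7.41 CPM (median 6.08) in *Winnie* brains. All 10 *Winnie* brains were above the C57BL/6 median and 4 above its highest brain (log2 fold change 0.29, SE 0.089, FDR = 0.0757 with limma). Smooth muscle actin (*Acta2*) was at 8.17 ± 1.40 against 8.52 ± 1.11 CPM (log2 fold change 0.06), and transgelin (*Tagln*) at 3.39 ± 0.461 against 3.41 ± 0.566 CPM (log2 fold change 0.0042, 95% confidence interval -0.18 to 0.19). *Tagln* and its neighbour *Pcsk7* overlap at their ends.

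Endothelial and mural genes were then set against each other within each brain. Each gene's log2(CPM + 0.5) was centred on its mean over the 20 brains and averaged over the 27 endothelial or the 10 mural genes. The endothelial level ranged from -0.21 to 0.16 with a median of -0.08 in C57BL/6 brains and from -0.019 to 0.12 with a median of 0.07 in *Winnie* brains. Its spread was wider in C57BL/6 (SD 0.13) than in *Winnie* brains (SD 0.045), and C57BL/6 replicates 2 and 5 were its highest and lowest brains. The mural level ranged from -0.26 to 0.088 in C57BL/6 and from -0.14 to 0.22 in *Winnie* brains. The difference of the genotype means was 0.11 for the endothelial level and 0.09 for the mural level. The endothelial minus mural level was -0.0096 ± 0.077 in C57BL/6 and 0.0096 ± 0.085 in *Winnie* brains (SD, n = 10 each), so its difference of 0.019 between the genotypes was smaller than either SD. Without each brain in turn this difference lay between 0.0042 and 0.034.

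**Figure D3:**
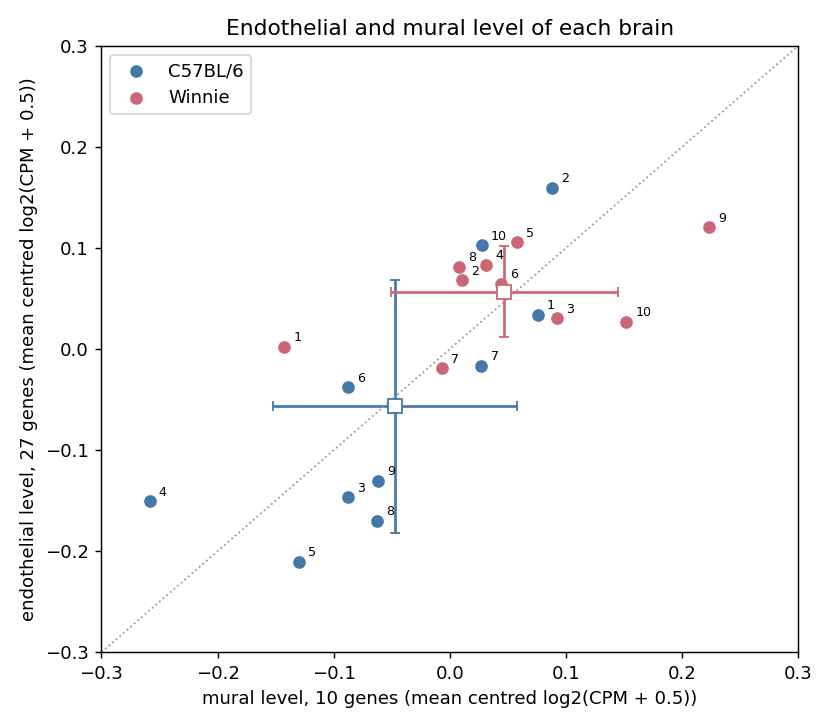
Mean endothelial level (y axis, 27 genes) against mean mural level (x axis, 10 genes) of each brain, both as centred log2(CPM + 0.5), with replicate numbers, genotype means as open squares and SDs as bars. The dotted line marks equal levels, and both genotype means lie near it, at -0.057 against -0.047 in C57BL/6 and 0.057 against 0.047 in *Winnie* brains.

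Both levels varied together from brain to brain. With each genotype centred on its mean, Pearson's r was 0.66 and Spearman's rho 0.74 over the 20 brains, 0.79 and 0.87 within the 10 C57BL/6 brains, and 0.51 and 0.47 within the 10 *Winnie* brains. Without the 2 brains farthest in the endothelial level (C57BL/6 replicates 2 and 5), r was 0.60. These values are descriptions, and both levels of a brain come from the same library. Gene pairs were read with the same centring, each gene on its mean in each genotype. Pairs of endothelial genes then had a median r of 0.23 over the 20 brains and mural pairs one of 0.21. Pairs of an endothelial with a mural gene had one of 0.19, against 0.037 over all pairs of genes. The 21 pairs of pericyte genes had a median r of 0.45, while the 21 pairs of a pericyte with a smooth muscle gene had one of -0.018. *Flt1* and *Cdh5* were the closest pair (r = 0.83), followed by *Ptprb* and *Abcb1a* (r = 0.83), and *Flt1* ran nearly as close to *Pdgfrb* of the pericytes (r = 0.80). The most opposed pair was *Mfsd2a* and *Pltp* (r = -0.73).

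Per kilobase of exon sequence, which allows genes to be compared by level, the order over the 20 brains was led by *Pltp* at 32.7 and *Slc2a1* at 32.2 CPM per kilobase. *Vtn* followed at 28.0, *Rgs5* at 20.3, *Itm2a* at 16.7, *Ly6c1* at 16.1 and *Mfsd2a* at 11.5 CPM per kilobase. The other 30 genes lay between 0.728 (*Myh11*) and 8.69 (*Slco1c1*) CPM per kilobase. The order of the first 3 differed by genotype: *Pltp*, *Vtn* and *Slc2a1* were at 33.2, 28.4 and 27.3 CPM per kilobase in C57BL/6 brains, and at 32.2, 27.6 and 37.1 in *Winnie* brains.

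The wider vascular lists held 98 genes that are not among the 37. Of these, 10 were higher and 5 lower in *Winnie* brains at an FDR under 0.05, beside 1.52% of all genes that were higher and 1.01% that were lower. Their median log2 fold change was 0.06, and the lists were chosen with earlier results of these data known. Wnt genes of both directions were among them, and the ligand and the receptor of the apelin pathway were both lower. Of 16 ligand genes 2 fell and 0 rose. *Wnt7a*, the Wnt ligand by which neural cells act on brain endothelium, fell from 10.8 ± 0.668 to 8.88 ± 0.87 CPM (log2 fold change -0.27, FDR = 0.0146 with limma). *Apln*, the ligand apelin, fell from 41.0 ± 4.42 to 31.0 ± 4.72 CPM (log2 fold change -0.41, FDR = 0.0059 with limma), and in 7 of 10 *Winnie* brains it lay below every C57BL/6 brain.

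Of 16 receptor and Wnt signalling genes 3 rose and 1 fell. *Fzd4*, the Wnt and Norrin receptor of the barrier, ranged from 5.80 to 9.02 CPM (median 6.43) in C57BL/6 and from 7.14 to 12.2 CPM (median 8.94) in *Winnie* brains (log2 fold change 0.44, FDR = 0.00649 with limma). *Adgrf5*, an adhesion receptor gene, and *Robo4*, a guidance receptor gene of endothelium, rose with log2 fold changes of 0.28 and 0.31. *Aplnr*, the apelin receptor, fell with a log2 fold change of -0.51 (FDR = 0.0371 with limma), but its mean was 0.622 CPM in C57BL/6 and 0.29 CPM in *Winnie* brains and rested on 2 to 19 reads per brain. Its log2 fold change was -1.09 with edgeR, and the limma call held in 10 of the 20 fits that left out a brain. Of 16 target and transcription factor genes 2 rose, the Wnt target *Apcdd1* (log2 fold change 0.29) and *Epas1*, which encodes the hypoxia-inducible factor HIF-2 alpha (log2 fold change 0.20).

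Of 16 other barrier and vesicle genes 3 rose and 2 fell. *Slc7a5* encodes LAT1, the carrier of tryptophan and other large neutral amino acids across the barrier, and is also active in other brain cells. It ranged from 65.2 to 85.2 CPM in C57BL/6 and from 85.6 to 98.0 CPM in *Winnie* brains, so the groups did not overlap, as for 0.0291% of all genes (log2 fold change 0.28, 95% confidence interval 0.19 to 0.37, FDR = 0.00108 with limma). *Cldn5*, the main claudin of the endothelial tight junction, ranged from 13.1 to 19.7 CPM (median 15.8) in C57BL/6 and from 8.77 to 15.4 CPM (median 11.7) in *Winnie* brains. In 9 of 10 *Winnie* brains *Cldn5* lay below every C57BL/6 brain (log2 fold change -0.47, 95% confidence interval -0.64 to -0.31, FDR = 0.00331 with limma). *Bsg* (basigin), a partner of monocarboxylate transporters, fell from 367 ± 16.4 to 326 ± 11.2 CPM (log2 fold change -0.17, FDR = 0.0059 with limma). *Cavin2*, of caveolae, and the insulin receptor gene *Insr* rose with log2 fold changes of 0.28 and 0.17. The *Insr* call (FDR = 0.048 with limma) held in 4 of the 20 fits that left out a brain and was lost with labelled sex or the *Ddx3y* level as a covariate. Those of *Cavin2* and *Epas1* held in 11 and 9 of the 20. Of 18 other mural genes *Notch3* rose, from 17.2 ± 2.73 to 21.6 ± 2.33 CPM (log2 fold change 0.33, FDR = 0.02 with limma). Its exon sequence overlaps that of *Gm17276* on the other strand. Of 8 arterial genes *Bmx* rose (log2 fold change 0.40, FDR = 0.0493 with limma), at 0.848 ± 0.242 against 1.26 ± 0.232 CPM, and was not called by edgeR (FDR = 0.0512), while DESeq2 gave it no adjusted p. The limma call held in 5 of the 20 fits that left out a brain. Of 8 venous genes and of 7 genes of inflamed endothelium 0 passed the FDR with limma, edgeR or DESeq2, and 3 (2 higher and 1 lower) and 0 had an unadjusted limma p under 0.05, as 17.6% of all genes had in either direction. With C57BL/6 replicates 3 and 5 both left out, 5 of the 15 calls held, those of *Slc7a5*, *Cldn5*, *Apln*, *Bsg* and *Fzd4*, and 67 of all genes were called. Without C57BL/6 replicate 3, C57BL/6 replicate 5 or *Winnie* replicate 8 alone, 9 of the 98 genes were called, beside 238, 169 and 216 of all genes.

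**Figure D4:**
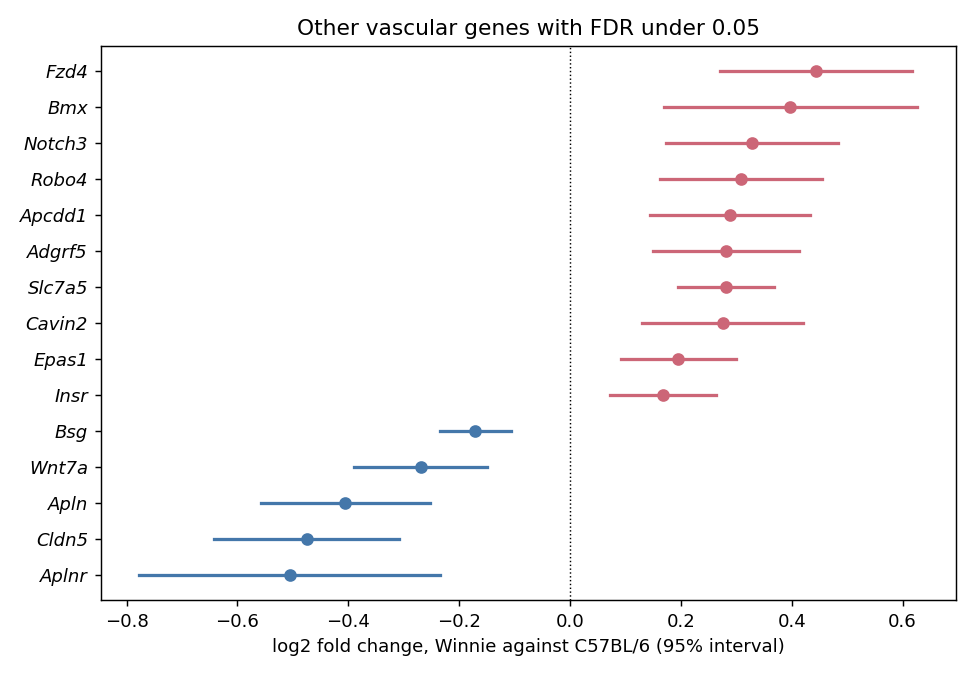
Log2 fold change (x axis, *Winnie* against C57BL/6) with 95% confidence intervals from limma over 10 brains per genotype for the 15 other vascular genes with an FDR under 0.05, ordered by value. The 10 genes that rose (red) run from *Insr* at 0.17 to *Fzd4* at 0.44, and the 5 that fell (blue) from *Bsg* at -0.17 to *Aplnr* at -0.51.

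Markers of other cells were read in the same brains. Of 5 red blood cell genes 0 passed the FDR with limma, edgeR or DESeq2 (1 had an unadjusted limma p under 0.05) and all 5 were below 0 in log2 fold change, and their summed level ranged from 93.6 to 208 CPM in C57BL/6 and from 40.6 to 150 CPM in *Winnie* brains. Of 12 genes of meningeal and perivascular fibroblasts 1 rose (*Pdgfra*, log2 fold change 0.20, also a gene of oligodendrocyte precursors), and DESeq2 called *Slc13a4* (0.28, FDR = 0.0296) beside it. *Col1a1* and *Col3a1* were lower at an unadjusted limma p under 0.05 (-0.24 and -0.28). The 12 genes had a median log2 fold change of 0.11 (9 above and 3 below 0), beside 0.09 over the endothelial and 0.07 over the mural members. The medians of the other cell lists lay between -0.28 and 0.0051. The summed level of the 12 fibroblast genes ranged from 229 to 319 CPM in C57BL/6 and from 277 to 346 CPM in *Winnie* brains. Of 9 astrocyte genes 1 rose (*Gjb6*, log2 fold change 0.22, called in 9 of the 20 fits that left out a brain), and 2 were lower at an unadjusted limma p under 0.05 (*Aqp4*, log2 fold change -0.16, and *Sox9*, -0.17), with summed levels of 4649 to 5366 CPM and 4707 to 5396 CPM. Of the genes of choroid plexus (10), microglia and macrophages (10), oligodendrocytes (7), neurons (8) and ependyma (5), 0 passed the FDR with limma, edgeR or DESeq2. At an unadjusted limma p under 0.05 there were 0, 4 (2 higher and 2 lower), 1, 0 and 1 genes of these lists, beside 17.6% of all genes in either direction. The choroid plexus sum ranged from 1151 to 1489 CPM in C57BL/6 and from 839 to 1556 CPM in *Winnie* brains. The part of these cells in the vascular values was not tested.

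Within the labelled sexes, *Slc2a1* was higher by 0.35 on the log2 scale in *Winnie* brains labelled female and by 0.56 in those labelled male (n = 5 per genotype and label). *Slco1a4* was higher by 0.34 and 0.33, *Ramp2* by 0.14 and 0.32, and *Abcc9* by 0.15 and 0.44. The labels of 9 C57BL/6 brains and of 0 *Winnie* brains went against their RNA. Each of these contrasts therefore set *Winnie* brains mostly or wholly against C57BL/6 brains of the other sex by RNA. Neither was matched for sex, and the difference between the labels was not tested. With the *Ddx3y* level as a covariate *Slc2a1*, *Ramp2* and *Abcc9* were called. With labelled sex as a covariate, which differed from sex by RNA in 9 C57BL/6 brains, *Slco1a4* was called beside them.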

How the data were processed

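Brain RNA of 20 mice was sequenced by the authors as paired reads of 100 bases, run through the RNAsik pipeline (genome GRCm38) and counted by featureCounts, which the submitters' processing notes name beside limma. The authors deposited CPM (reads of a gene scaled to the same total of listed genes in every brain). The aligner and the strandedness of the counting are not given in the sources used here. Every brain's CPM values were whole multiples of the value of 1 read (tolerance 0.05 reads, at least 99.95% of values), and 1 read was worth 0.0418 to 0.0605 CPM. Read numbers and intervals drawn from them cover counting error only.

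Genotypes were compared over all 20 brains on log2(CPM + 0.5) by limma (version 3.58.1, R 4.3.3), with trend and robust variance estimates and Benjamini-Hochberg adjustment over 17211 genes. Fold changes on this scale understate those of low genes. Each sample is labelled as a separate mouse. The 37 genes, their roles and the other lists were chosen with earlier results of these data known. Every member is named, members with an unadjusted p under 0.05 are given in full, and genes of the other lists are named where their FDR was under 0.05. Some genes of those lists, among them *Sele*, *Selp*, *Madcam1*, *Cnn1*, *Carmn* and *Slc4a1*, were not analysed here. Coordinates and exons come from GENCODE M21 and start sites from RefSeq. Exons of further genes, among them *Abcb1a*, *Sox17* and *Pdgfra*, also overlap those of other annotated genes. No comparison of the genotype effect between sexes was made, since the labels of 9 C57BL/6 brains went against *Xist* and *Ddx3y*.

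Alternatives were pseudocounts of 0.1 and 1, a mean CPM of at least 1, median-ratio and TMM scaling, labelled sex or the *Ddx3y* level as a covariate, a replicate block, count models of the recovered reads (edgeR 4.0.16, DESeq2 1.42.0), and each brain left out in turn. Leaving out C57BL/6 replicates 3 and 5 together was added after seeing the data. The limma and edgeR fits were tested on simulated data.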

Additional observations from a re-analysis of the deposited data

Results flagged for a closer look

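The values of the 37 genes and of the levels built from them were searched for a single brain standing apart from the other 9 of its genotype, in 80 sets of 10 values, of which chance alone would single out about 1 in 20. The sets come from the same brains, so they are not independent of each other. There were 4 such values, no more than 1 in 20 of the 80 sets. C57BL/6 replicate 2 held 3 of them, as the highest brain of its genotype for *Ly6c1* (33.33 CPM, the next brain 26.44 CPM), *Podxl* (51.07 CPM, the next 40.94 CPM) and *Abcc9* (15.6 CPM, the next 11.78 CPM). The same brain had the highest mean level of red blood cell genes of its genotype (1.0031 on the centred log2 scale). *Winnie* replicate 4 was highest for *Tie1*, at 14.47 CPM beside 11.52 CPM in the next brain.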

How the results depend on the processing

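The 3 calls among the 37 genes became 8 with DESeq2, adding *Slco1a4*, *Abcg2*, *Mfsd2a*, *Sox17* and *Myh11*. DESeq2 also called more of all genes, 977 beside 434 in the main limma fit, so the rise was not particular to the 37 genes. Under the other planned settings that kept all brains, the calls among the 37 genes lay between 2 and 4. Leaving out each brain in turn gave 1 to 7 calls among the 37 genes and 9 to 17 among the 98 other vascular genes (15 with all brains). Those fits called 169 to 694 of all genes. With C57BL/6 replicates 3 and 5 both left out there were 1 and 5 calls, and 67 over all genes, in fits with fewer brains. No member passed the study's threshold under any setting run. The titles' numbers 1 to 10 did not pair the brains: the correlation of same-numbered brains ran from -0.29 to 0.15, with 2 of 10 above 0.1, and 1 C57BL/6 brain correlated best with its own number. With the replicate block 2 members (*Slc2a1* and *Slco1a4*) and 11 other vascular genes were called, beside 227 of all genes. Some log2 fold changes near 0 changed sign. *Tie1* was at -0.0026 with median-ratio scaling, -3.2e-04 with edgeR and -0.0029 with DESeq2. With both brains left out *Tie1* was at -0.031, *Cdh5* at -0.015, *Itm2a* at -0.032 and *Foxq1* at -0.0073. Without single brains the ranges were -0.046 to 0.043 for *Tie1*, -0.013 to 0.044 for *Cdh5*, -0.019 to 0.035 for *Itm2a*, -0.0402 to 0.068 for *Foxq1*, -0.032 to 0.035 for *Tagln*, -0.077 to 0.011 for *Emcn* and -0.0095 to 0.12 for *Kcnj8*. The other members kept their direction in every setting run. The cause of these changes was not tested. Depth limits the genes with few reads, such as *Higd1b*, *Aplnr* and *Nostrin*.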
